A study of Mus musculus with 39 samples.

Results

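The 10 genes described here are markers by which macrophages are recognised, among 29411 gene symbols on the array. They were chosen by name and not by a rule on measured values, but with earlier results of these data known. Every probe whose symbol in the series table is a member was taken. Emr1, Cd68 and Csf1r were taken as pan-macrophage members, Mrc1, Cd163 and Mertk as members that mark resident tissue macrophages, and Itgam, Itgax, Cd14 and Lyz2 as members that macrophages share with other myeloid cells. All 10 genes had at least 1 probe that passed the filter on dim probes, and each gene was read from its brightest probe. The question was whether these markers differed between diets or over time, and whether the pan-macrophage and the resident members moved apart.

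Macrophages are phagocytes that live in most tissues, where some settle early and renew themselves and others arrive from blood monocytes. In fat they clear dead fat cells and lipid, and their number and state are known to shift in obesity. Resident macrophages often carry scavenger and clearance receptors such as Mrc1, Cd163 and Mertk, whereas Itgam and Itgax, the alpha chains of integrins, are also found on neutrophils, monocytes and dendritic cells.

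RNA came from brown fat of C57BL/6J mice and was described by the labels as infiltrating macrophages, or stromal vascular cells (SVCs). Mice were weaned at 3 to 4 weeks of age and then received a low fat diet (LFC, 10 arrays), a high fat, high sucrose diet (HFC, 11 arrays), or that same high fat diet with 5, 20 or 75 µg of KAL-1, a botanical formulation (HF5, HF20 and HF75, 6 arrays each). LFC and HFC were sampled at Day 1, 6, 10 and 14 and at Week 0, 3, 9, 12, 15 and 18, and HFC also at Week 6. The KAL-1 diets were sampled from Week 3 on, at the weeks of HFC, and no array carried both KAL-1 and the low fat diet. All 39 arrays are single samples of a diet and a time label, and whether such a sample was 1 mouse or a pool is not given in the sources used here. The series' design text speaks of 3 biological replicates, while 1 array per diet and label was analysed here, so what an array stands for is unsettled and p-values measure the spread between arrays over time labels. The HF20 Week 12 array carries a characteristic of high fat diet alone and was kept in HF20 by its title and source name.

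Each level below is log2 of the processed signal minus log2 of the 75th percentile of the array, so a level of 0 equals that percentile and a step of 1 is a doubling. That percentile ranged from 18.1 to 3974.2 intensity units, and 31.2% to 98.0% of spots were well above background. On 3 arrays over 10% of spots were marked as outliers and left out (HF20 Week 15 with 71.4%, HF5 Week 12 and HFC Week 12). As a result 6 members have no value on HF20 Week 15, and Mertk has none on HF5 Week 12. The titles of 9 arrays hold BA or BAT, which the labels do not explain. The label of macrophages was checked against other markers. Adipoq, a hormone of fat cells, and Ucp1, the heat-producing protein of brown fat, were well above background on all 39 arrays, as was Acta1 of skeletal muscle. RNA of fat cells and muscle was therefore measured together with that of macrophages, and a lower level of a member cannot be told apart between fewer macrophages and less RNA per macrophage.

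The probes of the members that results turn on are shown because a gene with several probes can give several answers. Each is 60 bases long, and its place within the transcript was not determined. Itgam, on chromosome 7 in the series table, has a pair of probes, of which the first listed is the brighter. Lyz2, on chromosome 10, has 1 probe under its own symbol.
Itgam, brighter probe: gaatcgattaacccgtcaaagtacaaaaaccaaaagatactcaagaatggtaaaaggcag
Itgam, dimmer probe: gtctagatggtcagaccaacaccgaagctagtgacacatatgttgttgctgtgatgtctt
Lyz2: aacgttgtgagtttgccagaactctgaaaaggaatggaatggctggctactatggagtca

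Promoter windows from RefSeq (GRCm38.p6, 250 bases before to 50 bases after the start of the gene) were found for 7 of the 10 members. They are shown because most members moved together across arrays, and they were searched on both strands for GAGGAA, a core that PU.1, the macrophage transcription factor encoded by Spi1, is known to bind. The letters occurred in 3 of these 7 windows (Cd68, Itgam and Mrc1) and in 28.3% of all 32851 windows. Capitals mark the matches, which read TTCCTC where they lie on the other strand.
Cd68 (chr11:69666121-69666420, minus strand): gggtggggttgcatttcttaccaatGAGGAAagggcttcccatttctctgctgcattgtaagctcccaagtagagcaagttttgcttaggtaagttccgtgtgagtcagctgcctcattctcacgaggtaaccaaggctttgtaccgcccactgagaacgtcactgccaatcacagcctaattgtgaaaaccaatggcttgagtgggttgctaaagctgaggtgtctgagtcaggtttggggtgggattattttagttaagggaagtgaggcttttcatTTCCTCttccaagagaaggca
Itgam (chr7:128062390-128062689, plus strand): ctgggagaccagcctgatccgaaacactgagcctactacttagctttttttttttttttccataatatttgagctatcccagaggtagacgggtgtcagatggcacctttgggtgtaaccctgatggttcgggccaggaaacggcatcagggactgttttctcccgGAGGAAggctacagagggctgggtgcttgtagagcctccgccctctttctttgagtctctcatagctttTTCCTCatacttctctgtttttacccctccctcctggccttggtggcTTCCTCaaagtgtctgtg
Mrc1 (chr2:14229164-14229463, plus strand): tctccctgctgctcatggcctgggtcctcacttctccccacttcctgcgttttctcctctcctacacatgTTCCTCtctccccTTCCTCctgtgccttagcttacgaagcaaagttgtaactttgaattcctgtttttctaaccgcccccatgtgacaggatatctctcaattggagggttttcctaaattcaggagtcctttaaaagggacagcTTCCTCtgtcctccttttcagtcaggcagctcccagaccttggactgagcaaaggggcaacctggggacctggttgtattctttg
The windows of Itgax, Lyz2, Cd163 and Mertk held no match, which says only that these letters are not in them.

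Among the pan-macrophage members, Emr1, an adhesion receptor of the macrophage surface named Adgre1 in RefSeq, was well above background on all 39 arrays. Its level was 0.22 to 2.90 in LFC with a median of 1.60, and 0.33 to 3.71 in HFC with a median of 1.68. In HF5 it was 0.09 to 4.15 (median 1.59), in HF20 -1.42 to 2.28 (median 1.49) and in HF75 0.55 to 3.08 (median 2.0). The 5 diets therefore overlapped over most of their range, and their means differed by at most 0.71, less than the smallest SD within a diet (0.91). Cd68, a glycoprotein of the phagosome and lysosome, ran from -1.87 to 0.80 in LFC (median -0.64) and from -1.96 to 2.35 in HFC (median -0.26). The medians of HF5, HF20 and HF75 were 0.12, 0.29 and 0.13, and their ranges contained those medians of both controls. Csf1r, the receptor for the growth factors CSF1 and IL-34, had medians of 0.70 in LFC, 0.69 in HFC, 0.46 in HF5, 0.62 in HF20 and 0.86 in HF75. It ranged from -1.40 (HF20 Week 15) to 2.92 (HFC Week 12) over all arrays.

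The myeloid members were less even. Itgam, or CD11b, is the alpha chain of the complement receptor Mac-1 and was well above background on 28 arrays. It ran from -6.30 to -0.61 in LFC (median -3.59), from -5.25 to -0.46 in HFC (median -2.61), from -4.27 to -0.17 in HF5 (median -2.41), from -4.42 to -0.51 in HF20 (median -2.90) and from -4.29 to -1.96 in HF75 (median -2.14). LFC therefore held the lowest array (Week 18) and, at Day 1, an array at -0.61, above every HF75 array. Itgax, or CD11c, was well above background on 27 arrays and had medians of -2.30 in LFC, -2.29 in HFC, -2.25 in HF5, -3.76 in HF20 and -2.69 in HF75, with a spread of 1.12 to 1.67 (SD) within a diet. The HF20 median is the value of HF20 Week 18, where Itgax was not well above background. Cd14, a co-receptor for bacterial lipopolysaccharide, ranged from -1.03 (HF5 Week 12) to 5.13 (HF5 Week 3), so its extremes lay within 1 diet. Lyz2, the lysozyme of macrophages and granulocytes, had means of -1.0 ± 0.93 in LFC (SD, n = 10) and -0.52 ± 0.82 in HFC (SD, n = 11). A further probe under the older symbol Lyzs carries the same accession and was saturated on 2 arrays. It is not counted as a member, and its means were 5.38 ± 1.87 in LFC (SD, n = 10) and 6.03 ± 0.84 in HFC (SD, n = 10).

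Among the resident members, Mrc1, the mannose receptor CD206, was well above background on all 39 arrays. It ran from -1.67 to 1.09 in LFC (median -0.02), from -0.67 to 3.32 in HFC (median 0.22), from -0.37 to 1.99 in HF5 (median 0.57), from -0.65 to 1.43 in HF20 (median 0.67) and from -0.23 to 1.57 in HF75 (median 0.56). LFC had the lowest median and mean, and its arrays overlapped those of every other diet. Cd163, the scavenger receptor for haemoglobin bound to haptoglobin, ran from -3.04 to 1.03 in LFC (median -0.25) and from -2.79 to 2.79 in HFC (median 0.28). In HF75 it stayed within -0.53 and 0.69, an SD of 0.42 against 1.13 to 1.51 in the other diets. Mertk, a receptor kinase by which macrophages take up dying cells, ran from -2.07 to 1.25 in LFC (median -0.54) and from -1.26 to 0.47 in HFC (median -0.15). Its medians were -1.03 in HF5, -1.33 in HF20 and -1.03 in HF75, and its lowest measured value was -3.86 on HF75 Week 9, where its probe was not well above background.

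**Figure D1:**
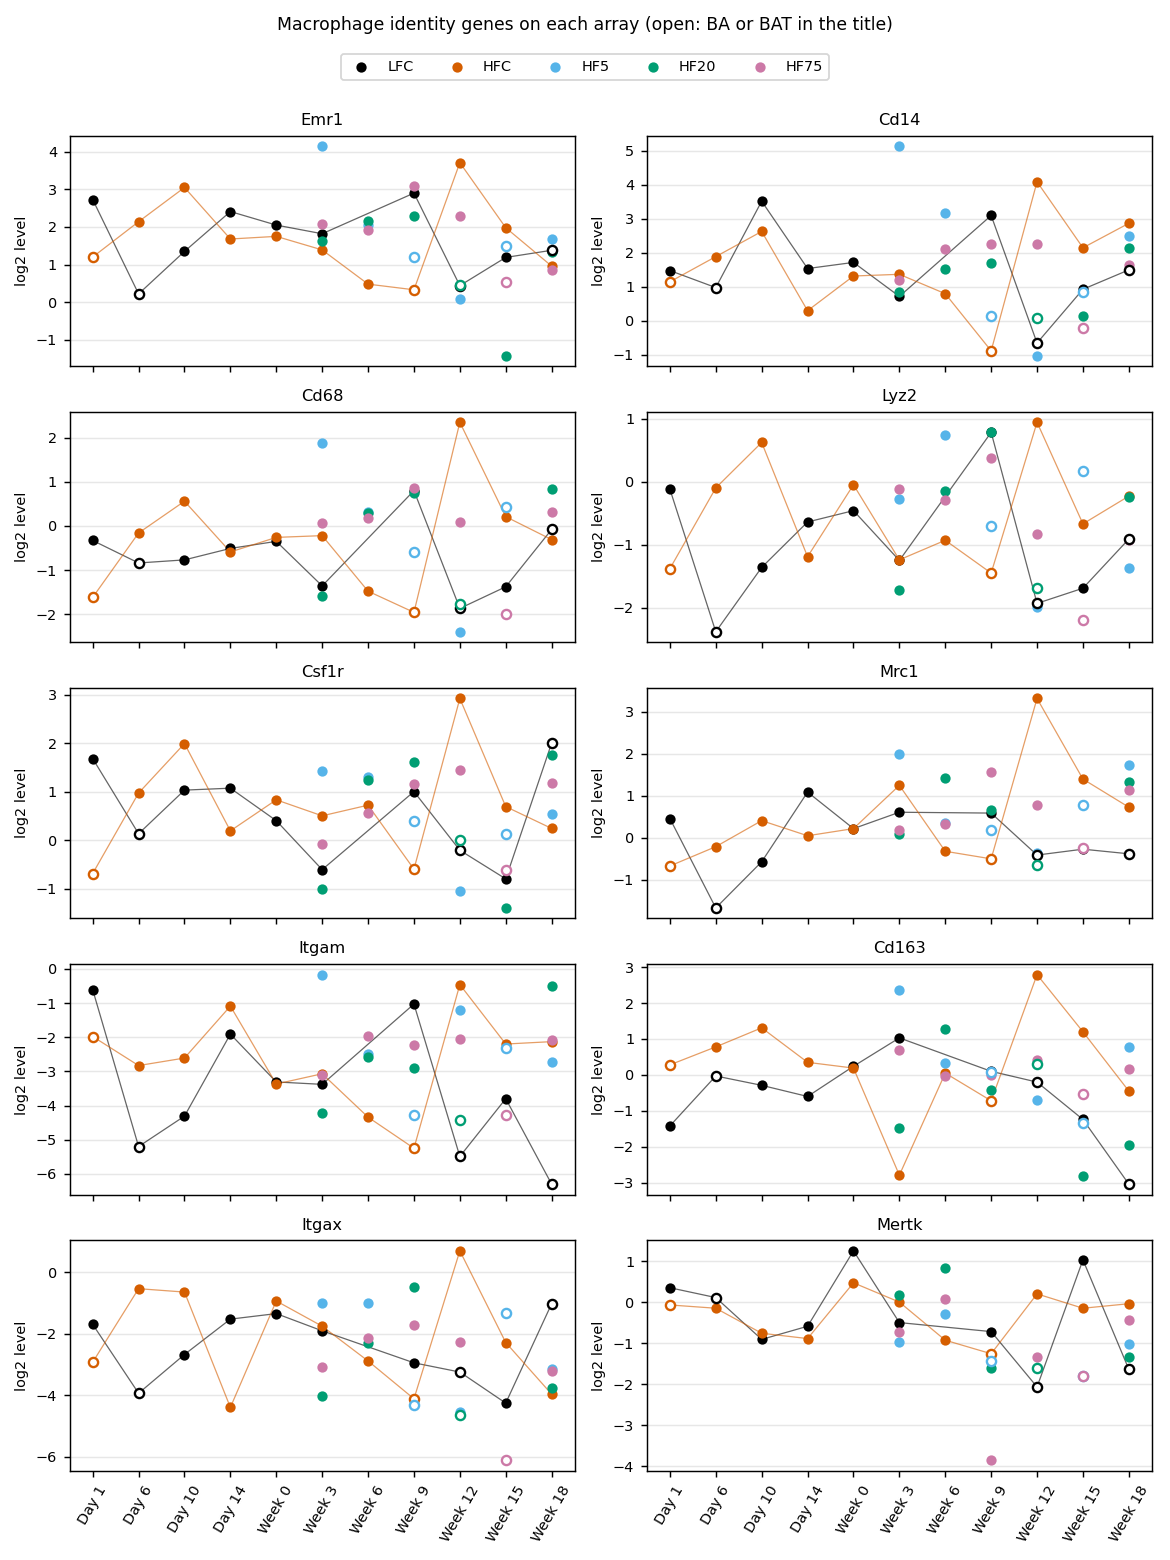
Level of each member (log2 of the signal over the array's 75th percentile) on every array by time label, with 1 point per array, colour for diet, lines joining LFC and HFC arrays, and open points for arrays with BA or BAT in the title. HFC Week 12 is the highest array for 6 of the 10 members and HF5 Week 3 for 3, while the colours overlap at most other labels.

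Single arrays stood out for many members at once. HFC Week 12 was the highest of all arrays for Cd68 (2.35), Csf1r (2.92), Itgax (0.69), Lyz2 (0.94), Mrc1 (3.32) and Cd163 (2.79), and it was among the top 3 for 9 members. HF5 Week 3 was the highest for Emr1 (4.15), Itgam (-0.17) and Cd14 (5.13). Other cell types differed between these arrays. On HFC Week 12 the mean deviation of brown fat cell genes from their own means over arrays was -4.39, that of skeletal muscle genes -3.94 and that of neutrophil genes -0.35. On HF5 Week 3 the corresponding deviations were 1.43, 3.21 and 3.48. The pan-macrophage members deviated by 2.38 and 1.87 on these arrays and the resident members by 2.22 and 1.24. The low end was shared as well, since HF5 Week 12 was among the lowest 3 arrays for 6 of its 9 measured members and HF20 Week 15 for 3 of its 4. Both belong to the 3 arrays with many outlier spots, as does HFC Week 12.

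HFC was compared with LFC in 1 limma fit of diet and time label over 34035 probes, and no difference of a member passed the threshold (adjusted p under 0.05). The same held for all probes, of which 0 (0%) were called, with 959 (2.82%) at an unadjusted p under 0.05 and a smallest adjusted p of 0.104. The difference was 0.92 ± 0.67 (SE) for Itgam, or 1.89-fold, and 0.78 ± 0.55 for Cd163, or 1.72-fold. The dimmer Itgam probe gave 0.03 ± 0.70 (1.02-fold), and the brighter one -0.07 under normexp, so the value of Itgam depended on the probe and on the background correction. The difference was 0.55 ± 0.44 for Mrc1, 0.44 ± 0.43 for Lyz2, 0.35 ± 0.54 for Cd68 and 0.25 ± 0.70 for Itgax. At 5 of the 10 labels shared by HFC and LFC, Itgax was not well above background on at least 1 array. The fitted difference lay near 0 for Csf1r (0.10 ± 0.45), Cd14 (0.09 ± 0.61), Emr1 (0.05 ± 0.50) and Mertk (-0.02 ± 0.38). Thus 9 of 10 members had values above 0, as did 54.2% of all probes. The 95% intervals ran from -0.45 to 2.28 for Itgam, from -0.34 to 1.91 for Cd163 and from -0.97 to 1.07 for Emr1, so changes of several fold in Itgam or of about 1 doubling in Emr1 were within the error.

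By time label, Itgam was higher in HFC than in LFC at 7 of 10 labels, but at 4 of these 10 (Day 6, Week 3, Week 9 and Week 18) an array was not well above background. At the other 6 it was higher at 4, from -1.37 to 5.04 (Week 12). Cd163 was higher at 7 of 10 labels. Leaving out Week 3, where HFC was not well above background, its differences ran from -0.82 to 2.98 (Week 12), and the fitted value was 1.26. Mrc1 was higher at 6 of 10 labels, from -1.13 (Day 1) to 3.74 (Week 12). Week 12 gave the highest difference for all 10 members, and there the LFC array has BA or BAT in its title and the HFC array does not. Without the HFC Week 12 array, the differences of Emr1, Cd68, Csf1r, Itgax and Cd14 turned to -0.24, -0.05, -0.18, -0.15 and -0.30, and those of Itgam, Cd163 and Mrc1 were 0.62, 0.53 and 0.21. At the 6 labels where both arrays were scanned on 1 date, the mean difference was 2.21 for Itgam, 1.75 for Cd163 and 1.08 for Mrc1. For the other members it lay between 0.29 (Mertk) and 1.15 (Cd68). These labels include Week 12 and Week 18, where the LFC array has BA or BAT in its title. Itgam differed there by 5.04 and 4.17, and at Week 18 it was not well above background on either array. At the 5 labels where neither title holds BA or BAT the means of Itgam, Cd163 and Mrc1 were 0.87, 0.23 and 0.45. These labels include Week 3, where Cd163 differed by -3.82 with the HFC array not well above background. Itgam was not well above background on either array of Week 3. In the same contrast, neutrophil genes had a median difference of 0.62 (13 of 13 above 0) and fat cell genes of -0.44 (13 of 14 below 0), with 0 called in either list. Their part in the member values was not tested.

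Neighbouring macrophage genes gave similar values. Of 23 other macrophage genes tested, 13 lay above 0 with a median of 0.15. Of 19 other genes of resident macrophages 16 lay above 0 with a median of 0.40, and of 16 genes of recruited or lipid-laden macrophages 13 did with a median of 0.27. Of 15 ligands and partners of the members, 6 lay above 0 with a median of -0.01. The median over 24717 genes was 0.04. None of these lists held a called gene.

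The 3 doses of KAL-1 were each compared with HFC in the same fit, so the contrasts share the HFC arrays. Here too 0 of 10 members and 0 (0%) of 34035 probes were called in each, with 498 (1.46%), 907 (2.66%) and 1210 (3.56%) probes at an unadjusted p under 0.05 for HF5, HF20 and HF75. Mertk gave the lowest values among members for HF5 and HF75, with -0.72 ± 0.50 (SE) for HF5, -0.18 ± 0.50 for HF20 and -0.86 ± 0.47 for HF75. HF75 was lower than HFC in Mertk at 5 of 6 labels and HF5 at 4 of 5. The adjusted p was 1 for HF5 and HF75 and 0.998 for HF20, and for HF75 the 95% interval ran from -1.83 to 0.11. The HF75 value was -0.48 without Week 9, where Mertk was not well above background in HF75, and -0.05 under another background correction (normexp).

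The other resident members did not follow Mertk. Mrc1 differed from HFC by 0.00 ± 0.54 in HF5, -0.24 ± 0.58 in HF20 and -0.15 ± 0.54 in HF75. Cd163 differed by 0.15 ± 0.68, -0.95 ± 0.68 and 0.01 ± 0.68. Among the pan-macrophage members Emr1 differed by 0.24 ± 0.62 in HF5, -0.46 ± 0.62 in HF20 and 0.25 ± 0.62 in HF75. Cd68 differed by 0.25 ± 0.67, -0.06 ± 0.71 and 0.24 ± 0.67, and Csf1r by -0.17 ± 0.56, -0.25 ± 0.56 and -0.01 ± 0.56. Values in HF20 lay below 0 for 9 of 10 members, and 51.4% of all probes did. In that diet 6 members lack the Week 15 array. Emr1, Csf1r, Cd14 and Cd163 keep it, although 71.4% of its spots were marked as outliers. On it they differed from HFC by -3.4, -2.09, -1.99 and -4.01. Without the 3 arrays with many outlier spots, which include an HFC array, Emr1 turned to 0.39 and Csf1r to 0.34. Over all alternatives Cd14 reached at most 0.11, and Cd163 stayed below 0 (at most -0.25). Itgam differed by 0.80 ± 0.83, 0.03 ± 0.89 and 0.38 ± 0.83, and Itgax by -0.21 ± 0.87, -0.87 ± 0.93 and -0.75 ± 0.87. Cd14 and Lyz2 lay between -0.45 and 0.27. No order by dose was shared by the 10 members, and each interval contained 0. Neutrophil genes had medians of 1.05, 1.14 and 1.45 above HFC and endothelial genes of -0.96, -0.93 and -0.57, with 0 called, and their part in these values was not tested.

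**Figure D2:**
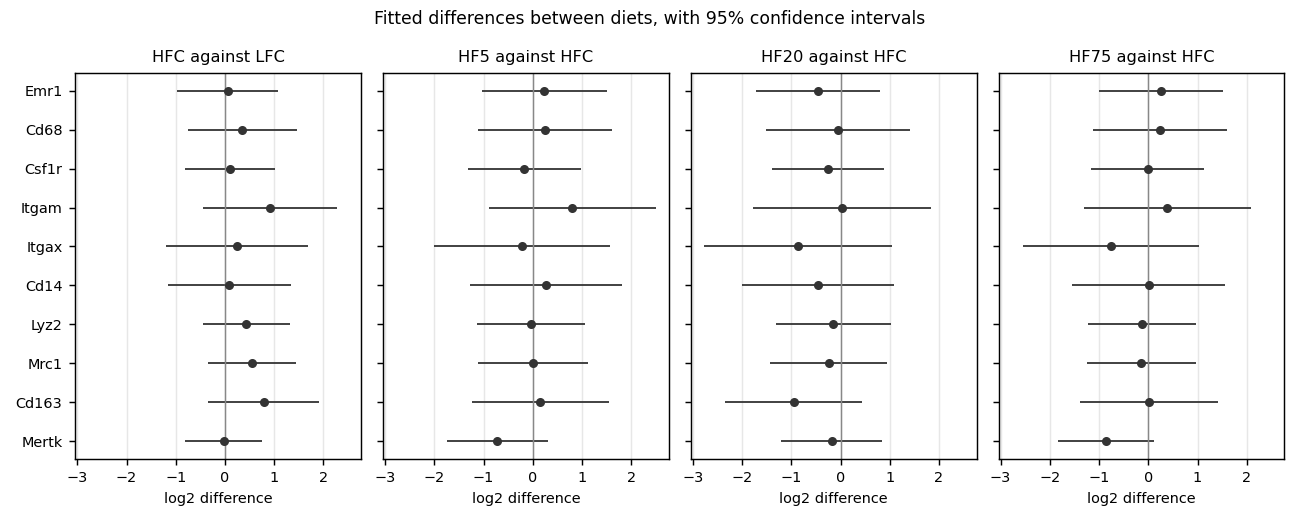
Fitted log2 difference of each member in the 4 diet contrasts (limma, points) with 95% confidence intervals (bars). Every interval contains 0, including those of Itgam for HFC against LFC (0.92) and of Mertk for HF75 against HFC (-0.86).

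Over time, the arrays of Week 3 to Week 18 were compared with those of Day 1 to Week 0. Of all probes 185 (0.544%) were called, 20 higher (0.0588%) and 165 lower (0.485%), and 5067 (14.9%) had an unadjusted p under 0.05. Without the 9 arrays titled BA or BAT the balance turned, with 57 higher and 44 lower. Of the 10 members 0 were called. Mrc1 was the single member with a value above 0, as 38.9% of all probes had (0.57 ± 0.44, adjusted p = 0.523). Its median was 0.14 on the 10 early arrays and 0.60 on the 28 late ones with a value, and it ranged from -1.67 to 1.09 early and from -0.65 to 3.32 late. Mertk had medians of -0.11 early and -0.93 late and a fitted difference of -0.36 ± 0.38. The early arrays were of LFC and HFC alone, while the late ones also held HF5, HF20 and HF75. Early and late medians of Mrc1 and Mertk therefore differ in diet make-up, whereas the fit has diet as a term. Itgam differed by -0.74 ± 0.67, Itgax by -0.40 ± 0.70, Cd163 by -0.37 ± 0.55 and Emr1 by -0.34 ± 0.50. Csf1r, Cd14, Lyz2 and Cd68 lay between -0.19 and -0.01, where the median of all probes was -0.19. Skeletal muscle genes had a median of 2.73 in this contrast (11 of 11 above 0) and endothelial genes of -1.31 (7 of 7 below 0), with 0 called, and their part was not tested.

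The difference of HFC from LFC was also compared between the late and the early labels. Of all probes 0 (0%) were called, with 487 (1.43%) at an unadjusted p under 0.05, and no member was. Mrc1 had the largest value, 0.95 ± 0.87, followed by Cd14 (0.93 ± 1.23), Csf1r (0.59 ± 0.91) and Mertk (0.58 ± 0.77). Cd163 had -0.43 ± 1.12. With standard errors of 0.77 to 1.43, a doubling or halving of the diet difference lay within the error. Without the HFC Week 12 array the value of Mrc1 was 0.33. Day 14 and Week 0 count as 1 day by the study's methods, and both give a view of how far arrays of 1 day differ. Emr1 differed by -0.36 in LFC and 0.07 in HFC between them and Cd68 by 0.16 and 0.33. Mertk was higher at Week 0 by 1.84 and 1.36, Itgam differed by -1.40 and -2.28, and Itgax by 0.18 and 3.47. On HFC Day 14 Itgax was not well above background (measured at -4.40), so the size of its difference in HFC is not settled. The arrays of Day 14 and of Week 0 were also scanned on different dates.

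To ask whether pan-macrophage and resident members moved apart, each member was set to its mean over arrays, and the mean deviation of Mrc1, Cd163 and Mertk was subtracted from that of Emr1, Cd68 and Csf1r on the 37 arrays that had all 6 values. This gap was 0.10 ± 0.98 (SD, n = 10) in LFC, -0.19 ± 0.51 (SD, n = 11) in HFC, 0.24 ± 0.52 (SD, n = 5) in HF5, 0.13 ± 1.02 (SD, n = 5) in HF20 and 0.24 ± 0.83 (SD, n = 6) in HF75. The means of the diets differed by less than the spread within a diet. Both groups of members deviated in the same direction on 29 of 37 arrays. The widest gaps were 2.06 on LFC Week 18, 1.74 on HF75 Week 9 and -1.17 on LFC Week 3. On LFC Week 18 Csf1r was at 2.0, its highest in LFC, while Cd163 was at -3.04, its lowest on any array. On HF75 Week 9 Emr1 was at 3.08 and Mertk was not well above background (measured at -3.86), so the size of that gap is not settled.

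Fitted over the diets, the gap was -0.27 for HFC against LFC. Against HFC it was 0.29 for HF5, 0.20 for HF20 and 0.49 for HF75. No test is given, since a score over chosen genes has none here. The fitted gap came from separate fits of the members, each over all arrays where that member had a value. In HF5 an array lacks Mertk but has the other members of the gap. In HF20 an array lacks Cd68, Mrc1 and Mertk but has Emr1, Csf1r and Cd163. For HF5 and HF20 the fitted gap therefore compares the pan-macrophage and resident members over unlike arrays, also under alternatives that keep these arrays. Label by label, HFC minus LFC averaged -0.27 ± 1.28 (SD, n = 10) and lay above 0 at 6 of 10 labels, from -2.57 (Week 18) to 1.5 (Week 3). HF5 minus HFC averaged 0.61 ± 0.51 (SD, n = 5) and lay above 0 at 4 of 5 labels. HF20 minus HFC averaged 0.35 ± 1.37 (SD, n = 5) and lay above 0 at 2 of 5. HF75 minus HFC averaged 0.52 ± 0.97 (SD, n = 6) and lay above 0 at 5 of 6 labels, with 2.39 at Week 9, where it rests on the undetected Mertk value. Without Week 9 the fitted gap of HF75 was 0.17. Without the 9 arrays titled BA or BAT the value for HFC against LFC changed sign to 0.40, and those for HF5, HF20 and HF75 became -0.01, -0.03 and 0.28. The direction of the gap between HFC and LFC therefore depended on whether these arrays entered. Week 3 has no titled array, and its 1.5 rests on Cd163 in HFC, measured at -2.79 and not well above background. The size of the 0.40 is thus not settled. With the titled arrays but without Week 3, the fitted gap of HFC against LFC was -0.46.

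**Figure D3:**
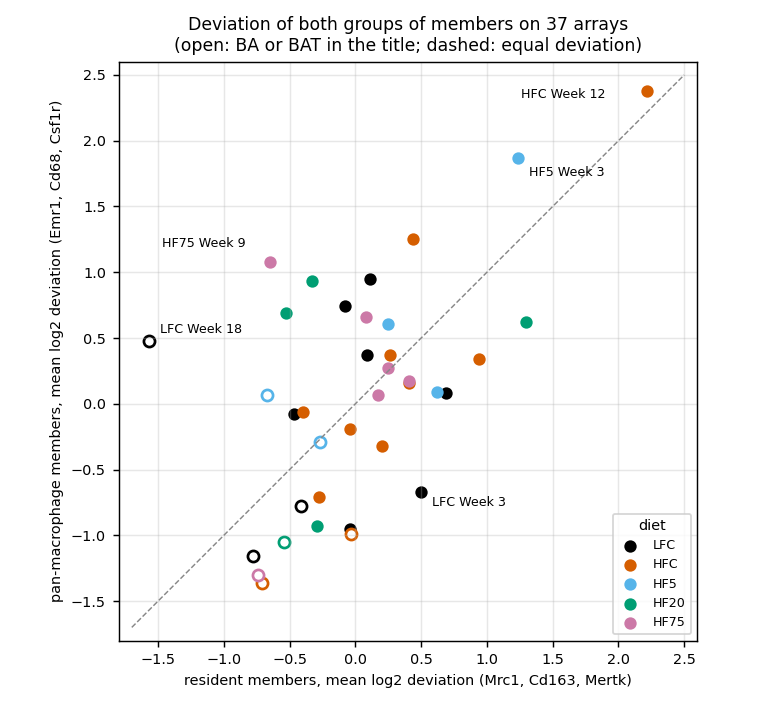
Mean log2 deviation of the pan-macrophage members against that of the resident members on 37 arrays, coloured by diet, with open points for arrays with BA or BAT in the title and a dashed line of equal deviation. HFC Week 12 lies at the upper right near the line, and LFC Week 18 and HF75 Week 9 lie farthest above it (gaps of 2.06 and 1.74, the latter with Mertk not well above background).

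Correlations between members were taken over the up to 30 arrays without BA or BAT in the title, since the titled arrays stand apart. All arrays share the scaling to their own 75th percentile, and dim arrays measure weak probes less precisely. Of 45 pairs, 36 had a Pearson r above 0, and 30 had a permutation p under 0.05 after Benjamini-Hochberg adjustment over the 45 pairs (22 by Spearman). The highest was that of Cd68 and Csf1r, with r = 0.812 (adjusted p = 0.000112) and rho = 0.726 (adjusted p = 0.000675, both permutation tests, unadjusted 1e-05, the smallest they can give, and 2e-05). Leaving out the 2 arrays farthest from the median of Cd68, r was 0.703. The 3 pan-macrophage pairs had r between 0.686 and 0.812. Mrc1 followed them, with r = 0.755 to Cd68 (permutation p = 1e-05, adjusted 0.000112; rho = 0.703, permutation p = 7e-05, adjusted 0.00072), and r = 0.639 without the 2 farthest arrays. Mrc1 and Cd163, both resident members, had r = 0.407 (permutation p = 0.0293, adjusted 0.0454) and rho = 0.310 (permutation p = 0.101, adjusted 0.145). That relation rested on 2 arrays, since r was 0.044 without them.

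Mertk stood apart from the others. Its 9 pairs had r between -0.284 and -0.004, and 0 of them passed the threshold, while the 36 pairs without Mertk had r between 0.092 and 0.812. Its r to Cd68 was -0.284 (permutation p = 0.14, adjusted 0.181) and to Mrc1 -0.179 (permutation p = 0.351, adjusted 0.385). When diet and time label were removed by the fit first, its 9 values lay between 0.038 and 0.234, so their sign depended on that step, and those of the other 36 pairs lay between 0.336 and 0.912. Without that step, but over values well above background alone, the 9 values lay between -0.251 and -0.019. The resident members therefore did not form 1 block on these arrays. The gap described above mixes Mrc1 and Cd163, which moved with the pan-macrophage members, with Mertk, which did not. Their r to Emr1, Cd68 and Csf1r lay between 0.564 and 0.755 for Mrc1 and between 0.465 and 0.641 for Cd163. Without the 2 farthest arrays, the r of Cd163 to Csf1r was 0.2.

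**Figure D4:**
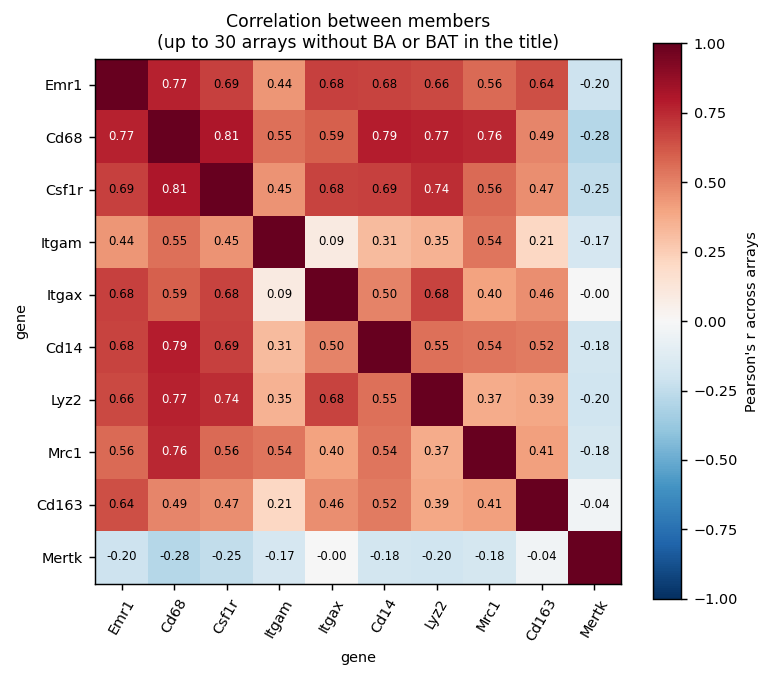
Pearson's r between each pair of members across the up to 30 arrays without BA or BAT in the title, with red for values above 0 and blue below. The row of Mertk holds no value above 0 off the diagonal (-0.284 to -0.004), and the block of Emr1, Cd68 and Csf1r holds values of 0.686 to 0.812.

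Likeness to the pan-macrophage mean was also read against all 24717 genes, whose r over these arrays had a median of 0.135. Lyz2 (0.798), Cd14 (0.779), Itgax (0.717), Mrc1 (0.698), Itgam (0.534) and Cd163 (0.511) lay above 97.4% or more of all genes, and Mertk (-0.278) above 1.2%. On 3 of these arrays the measured Mertk value was not well above background. With the titled arrays included, Cd163 (0.380) lay above 86.1% of all genes and Mertk (-0.007) above 31.0%. Lyz2, Cd14, Itgax, Mrc1 and Itgam then lay above 97.7% or more. The non-member genes most like the pan-macrophage mean over all arrays were Lyz1 (r = 0.918), Fcgr3 (0.900), F13a1 (0.891), Clec4a2 (0.885) and Dok2 (0.884), over up to 38 arrays. Lyz1 is a lysozyme close in sequence to Lyz2, and probes of such pairs may share signal. Fcgr3 is a receptor for antibodies and F13a1 a chain of coagulation factor XIII. Nearest to the mean of the resident members were Fcna (0.764), Lyve1 (0.754), AI607873 (0.734), Has2 (0.734) and Xlkd1 (0.731), over up to 37 arrays. Without the titled arrays the 5 nearest genes were Slamf8, Lyve1, Atp6ap2, Il1rn and Mcoln2, so Lyve1 alone remained, while 4 of the 5 nearest the pan-macrophage mean remained (C1qa in place of Clec4a2). Xlkd1 is an older symbol of Lyve1, the hyaluronan receptor, and Has2 is a hyaluronan synthase.

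Members also differed by title. With diet and time label in the fit, 17820 of 34035 probes (52.4%) were called between the 9 arrays with BA or BAT in the title and the other 30, of which 6986 were higher (20.5%) and 10834 lower (31.8%). Among members 5 of 10 were called, each lower, against the 31.8% of all probes called lower. The other 5 had values below 0, as did 57.8% of all probes. The called members were Itgam (-2.61 ± 0.45, adjusted p = 0.000184), Mrc1 (-1.21 ± 0.37, adjusted p = 0.00956), Cd14 (-1.56 ± 0.53, adjusted p = 0.0163), Lyz2 (-1.0 ± 0.39, adjusted p = 0.033) and Cd68 (-1.17 ± 0.50, adjusted p = 0.0494). The median of the members was -1.11 and that of all probes -0.30. Emr1 (-1.06 ± 0.45, adjusted p = 0.0505), Mertk (-0.72 ± 0.37, 0.103), Itgax (-1.22 ± 0.67, 0.125), Csf1r (-0.66 ± 0.43, 0.196) and Cd163 (-0.55 ± 0.54, 0.398) did not pass.

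Itgam ran from -6.30 to -1.98 on the titled arrays (median -4.42) and from -4.34 to -0.17 on the others (median -2.48). On 5 of the 9 titled arrays it was below each of the 29 others measured, but it was not well above background on 2 of these 5 and on 9 of the 29. Among values well above background, 3 of 7 titled arrays lay below all 20 others. Its dimmer probe gave -2.32 ± 0.57 (adjusted p = 0.0021). Mrc1 ran from -1.67 to 0.79 (median -0.41) and from -0.57 to 3.32 (median 0.59), and 3 titled arrays were below each of the others. Cd14 ran from -0.89 to 1.49 (median 0.13) and from -1.03 to 5.13 (median 1.70), and all 9 titled arrays were below the median of the others. Cd68 ran from -2.0 to 0.44 (median -1.62) and from -2.40 to 2.35 (median -0.08). Emr1 lay at 0.22 to 1.5 (median 0.55) against -1.42 to 4.15 (median 1.95), again with all 9 below the median. Its dimmer probe, well above background on 9 arrays only, gave -2.34 ± 0.45 (adjusted p = 0.000345).

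Within single time labels the direction was shared by Itgam, Cd68, Cd14 and Mrc1, which were lower on the titled arrays at all 6 labels that hold both kinds. At Week 12, where all 5 arrays were scanned on 1 date, the difference was -3.72 for Itgam and -1.78 for Mrc1. At Week 15, the other such label, the differences were -0.31 and -0.29, and Emr1, Csf1r, Lyz2 and Cd163 were at 0.44, 0.26, 0.17 and 0.01. For Emr1, Csf1r and Cd163 the untitled mean there includes HF20 Week 15 (-1.42, -1.4 and -2.81). On that array 71.4% of spots were marked as outliers, and the direction of these members at Week 15 rests on it. Itgam was called under all 23 alternatives. Cd14 lost its call without Week 9 and Mrc1 without Week 9 and under normexp, while Lyz2 was called in 16 of 23 and Cd68 in 11 of 24. Leaving out the HFC Week 12 array left 3 members called. The titled arrays were also brighter, with a median 75th percentile of 852.4 against 81.1 intensity units, so the scaling matters here. The median of all probes was 0.21 under quantile normalization and -1.29 under normexp, and the share of called probes that were higher was 39.2% as reported, 67.6% under quantile normalization and 27.3% under normexp. Relative to that median all 10 members were lower as reported and under quantile normalization, but 2 of 10 under normexp, where Emr1 was at 0.02.

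Other gene groups moved with the titles. Of 23 other macrophage genes 19 were lower and none higher (median -1.74), among them Aif1 (-2.70 ± 0.38), Tyrobp (-2.48 ± 0.42) and Lgals3 (-1.49 ± 0.50), while Ctss was at -1.10 ± 0.49 (adjusted p = 0.0583). Of 19 other resident macrophage genes 15 were lower (median -1.51), among them Cbr2 (-2.12 ± 0.48), Pf4 (-1.12 ± 0.46) and F13a1 (-1.38 ± 0.47), and Sepp1 was at -0.16 ± 0.33 (adjusted p = 0.691). Of 16 genes of recruited and lipid-laden macrophages 10 were lower and 2 higher (median -2.22). The higher ones were Lpl (1.69 ± 0.41) and Cd36 (1.31 ± 0.42), which fat cells also express. Of 15 ligands and partners 9 were lower and 1 higher, with Csf1, a ligand of Csf1r, at -0.92 ± 0.38, Gas6, a ligand of Mertk, at -1.63 ± 0.62, and Itgb2, the beta chain that pairs with Itgam and Itgax, at -1.84 ± 0.45. Hp, which encodes haptoglobin, was the higher one (1.65 ± 0.50).

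Markers of other cells differed by title too. All 13 neutrophil genes tested were lower (median -4.51), with S100a8 at a median level of -1.88 on titled arrays and 2.99 on the others. Of T cell genes 10 of 12 were lower (median -2.17), of B cell genes 8 of 10 (median -2.18), of dendritic cell genes 5 of 8 with 1 higher (median -1.62), of fibroblast genes 5 of 8 (median -0.93) and of endothelial genes 2 of 7 (median -0.75). Of fat cell genes 11 of 14 were higher and 1 lower (median 1.69), and of brown fat cell genes 7 of 13 were higher (median 1.41). Of skeletal muscle genes 0 of 11 were called (median 0.87). The mean level of the neutrophil list ranged from -5.15 to -0.15 on titled arrays and from -5.45 to 2.67 on the others, and that of the fat cell list from 2.85 to 5.97 and from 0.73 to 5.30. The part of these cells in the member values was not tested.

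**Figure D5:**
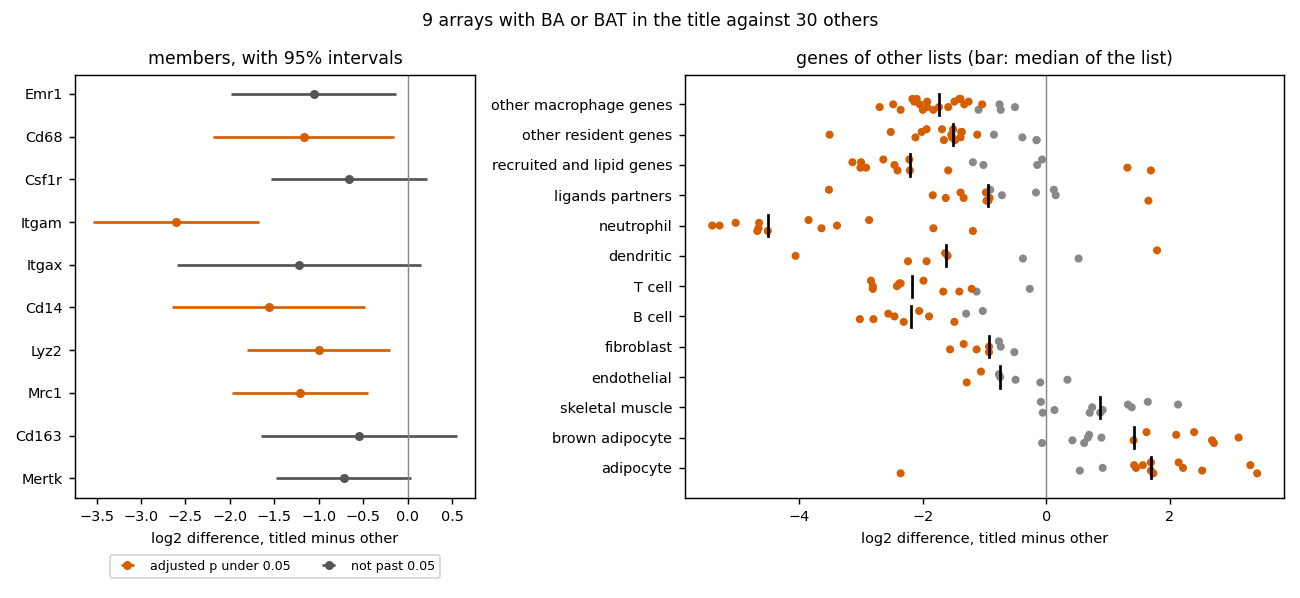
Log2 difference between the 9 arrays with BA or BAT in the title and the 30 others (limma), for members with 95% confidence intervals at the left and for genes of other lists at the right, with orange for an adjusted p under 0.05 and a bar at the median of each list. Members lie between -2.61 and -0.55, the neutrophil list has a median of -4.51 and the fat cell list one of 1.69.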

How the data were processed

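RNA of brown fat stromal vascular cells was measured on 39 Agilent arrays of 1 colour. Per the file headers, the authors deposited the scanner's processed signal, an intensity from which Feature Extraction (version 9.1 in the submitters' processing notes) had taken off the background. Arrays were not normalized to each other. The authors also deposited a series table of log2 values, in 39 columns that were not used, from which only gene symbols, chromosomes and probe sequences were taken.

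The processed signal was taken as log2 minus log2 of the 75th percentile of the array. Outlier-marked spots were dropped and spots of a probe averaged. Of 40628 probes, the 34035 well above background on 6 or more arrays were kept. The brightest probe stood for a gene. Arrays have no read depth, and their number and signal over background limit the precision.

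Diets were compared with limma 3.58.1 (R 4.3.3), with diet and time label as additive terms over all arrays, two-sided, with Benjamini-Hochberg adjustment over all probes. Titles and early or late labels were tested likewise. The fit was tested on simulated data. Correlations used 100000 permutations. The pairing of arrays by time label was checked by correlating residuals of HFC and LFC (median 0.179, over 0.1 at 5 of 10 labels), so labels do not all pair arrays, and the label was kept in the fit as planned. Scan date (18 dates) and slide (36 slides) were tried as random blocks (statmod 1.5.0). Alternatives were other normalizations, filters, array weights, the methods' t-test, probe averages and the leaving out of each time label. Those leaving out arrays with many outlier spots, HFC Week 12 or HF20 Week 12, joining Day 14 with Week 0, or correlating only values well above background, were chosen after seeing the data. All 10 members are named, with the 5 genes most like the pan-macrophage and the resident means, and from each list the brightest genes. Members and lists (other macrophage, resident, recruited and lipid genes, ligands and partners, neutrophil, dendritic, T cell, B cell, fat cell, brown fat cell, muscle, endothelial and fibroblast genes) were chosen with earlier results of these data known. RefSeq symbols matched 10 of 10 members.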

Additional observations from a re-analysis of the deposited data

Results flagged for a closer look

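In the diets with up to 10 arrays, the highest and the lowest array of each member were set against the spread of the rest (Dixon's rule). Of 40 such groups 2 held an array far from the others, where chance gives about 1 in 20. Cd68 on HF75 Week 15 was at -2.0, the lowest of 6 arrays, and Itgax on the same array was at -6.12, also the lowest of 6. The title of that array holds BA or BAT, and its part in these values was not tested.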

How the results depend on the processing

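In the diet, time and interaction comparisons, 0 of 1630 member values under alternatives were called. Over all 7 comparisons 247 of 1865 values changed sign, each of a member not called, and no called value did. In the title comparison 196 values stayed on their side of the threshold, 23 lost a call and 16 gained one. The members called there (5) were 3 under quantile normalization, 3 without HFC Week 12, 3 without HF20 Week 12 and 2 to 7 when a time label was left out (2 without Week 9). Probes called by title (17820) were 11026 under quantile normalization, 28422 under normexp, 4923 among probes well above background on all arrays, 5225 with array weights and 10061 to 20338 when a label was left out. Of the called probes, 53.6% were higher without Week 9, 28.8% with no filter and 73.4% among probes well above background on all arrays. Probes called between HFC and LFC (0) were 2 under quantile normalization, 2 among probes well above background on all arrays, 32 with array weights, 2 without the titled arrays, 4 with the title as a covariate, 1 in a fit of both diets alone, 1 without HF20 Week 12 and 0 to 1 when a label was left out. For HF75 against HFC (0) they were 3 without the titled arrays and 1 with the title as a covariate. Late against early (185) gave 98 under quantile normalization, 0 under normexp (1542 at an unadjusted p under 0.05), 90 with no filter, 33 among probes well above background on all arrays, 71 with outlier spots kept, 1077 with array weights, 478 with scan date as a block, 101 without the titled arrays, 942 without the 3 arrays with many outlier spots, 349 without HFC Week 12 and 5 to 1030 when a label was left out (5 without Day 6, 1030 without Week 15). With array weights the fitted gap of HF5 against HFC was 0.99, again over unlike arrays for the pan-macrophage and resident members. The cause of these changes was not tested. Without the time label as a replicate block, 0 probes were called in each of the 4 diet contrasts, and the gap was -0.29, 0.20, 0.17 and 0.43. Precision was limited by 1 array per diet and label and by dim arrays.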
